A study of Mus musculus with 20 samples.

Results

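The 8 genes described here differ in level in mouse beta cells that lack Hnf4a and are little studied in that cell type: Sel1l3, Tacc2, Grtp1, Clip4, Spon2, Olfm2, Abtb2 and Anxa10. They are 8 of 26305 usable gene names in the deposited table. They were chosen by their measured difference with Hnf4a loss in these same libraries. For these 8 genes every comparison of an Hnf4a knockout with its control is therefore given as a description, with no p-value. Counts of genes past the threshold in these comparisons are stated beside the share of all genes and support nothing. All 8 had a mean of at least 0.5 FPKM (fragments per kilobase of transcript length, relative to sequencing depth) and were among the 12455 genes tested.

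RNA was measured in beta cells of male mice aged 6 to 8 months and fed chow, with 5 libraries in each of 4 genotypes. Per the protocols, beta cells of purified islets were sorted by a label that Cre recombinase under the rat insulin promoter (RIP-Cre) and a ROSA26-tomato allele gave them. WT is the control group, IKO had floxed Foxo1, HKO had floxed Hnf4a, and DKO had both floxed genes. The deletions were therefore limited to cells in which the insulin promoter drives Cre. HKO against WT shows the loss of Hnf4a with Foxo1 present, and DKO against IKO shows it with Foxo1 deleted. IKO against WT and DKO against HKO show the loss of Foxo1 in each Hnf4a state, and the interaction asks whether the Hnf4a difference changes with the Foxo1 state.

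Hnf4a is a nuclear receptor that works as a transcription factor in liver, gut, kidney and pancreas, and inherited defects of the human gene cause a form of diabetes through failing insulin secretion. Foxo1 is a forkhead transcription factor that insulin signalling keeps out of the nucleus, and in beta cells it is known for its part in stress responses and in keeping cell identity. The 8 genes encode proteins of unlike kinds. Sel1l3 is a membrane protein with repeats like those of Sel1l, the adaptor of endoplasmic reticulum associated degradation (ERAD). Tacc2 belongs to the transforming acidic coiled-coil proteins of centrosomes and microtubules, Clip4 carries the CAP-Gly domain of microtubule-binding linker proteins, and Grtp1 has the TBC domain found in proteins that switch off Rab GTPases. Spon2 is a secreted matrix protein also called mindin, Olfm2 is a secreted olfactomedin-domain glycoprotein, Abtb2 has ankyrin repeats and a BTB domain, and Anxa10 is an annexin, a family that binds membrane phospholipids.

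The libraries held 22.6 to 34.7 M reads, and the targeted genes followed their labels in direction. Foxo1 was at 6.64 ± 1.48, 1.11 ± 0.460, 5.97 ± 1.84 and 1.4 ± 0.263 FPKM in the WT, IKO, HKO and DKO libraries (SD, n = 5). Hnf4a was 5.56 ± 0.860, 5.39 ± 1.02, 3.82 ± 0.355 and 3.99 ± 0.341 FPKM in the same order, so that the HKO mean was 68.8% of WT. Which exons were floxed is not given in the sources used here, and reads outside them check nothing. Beta cell markers were all present, with a summed level of 269459 to 388531 FPKM. Within each group, replicates 1 and 2 and replicates 4 and 5 were far more alike than other pairs. These 2 pairs and the lone replicate 3 are treated as 3 library sets below. The labels do not say that the 5 libraries of a genotype came from separate animals, so a p-value here reflects variation among libraries that may be technical. In bulk samples such as these, fewer cells of a type and less RNA per cell cannot be told apart.

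By group means, 4 of the 8 genes were lower and 4 were higher without Hnf4a, with the same direction in HKO against WT and in DKO against IKO. The lower genes were Sel1l3, Tacc2, Grtp1 and Spon2, and the higher ones were Clip4, Olfm2, Abtb2 and Anxa10. For Anxa10 in DKO against IKO the libraries overlapped and the 95% interval of the log2 difference held 0 (0.17, -0.15 to 0.50). In HKO against WT 5 of 8 passed limma's test at an adjusted p below 0.05, against 0.787% of all genes tested. In DKO against WT 7 of 8 passed, against 1.2%, and in DKO against IKO 7 of 8 passed, against 1.11%. Nothing is read from these shares, because the same comparisons chose the genes. No single comparison called all 8: Clip4, Olfm2 and Spon2 did not pass in HKO against WT, and Anxa10 did not pass in DKO against WT or DKO against IKO. With the close pairs of replicates averaged, 2, 3 and 5 of the 8 passed in the 3 comparisons. Over all 12455 genes that setting left 5, 17 and 15. The libraries of HKO and WT did not overlap for 6 of 8 genes (2.48% of all genes), those of DKO and WT for 8 of 8 (3.37%), and those of DKO and IKO for 7 of 8 (2.77%).

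**Figure D1:**
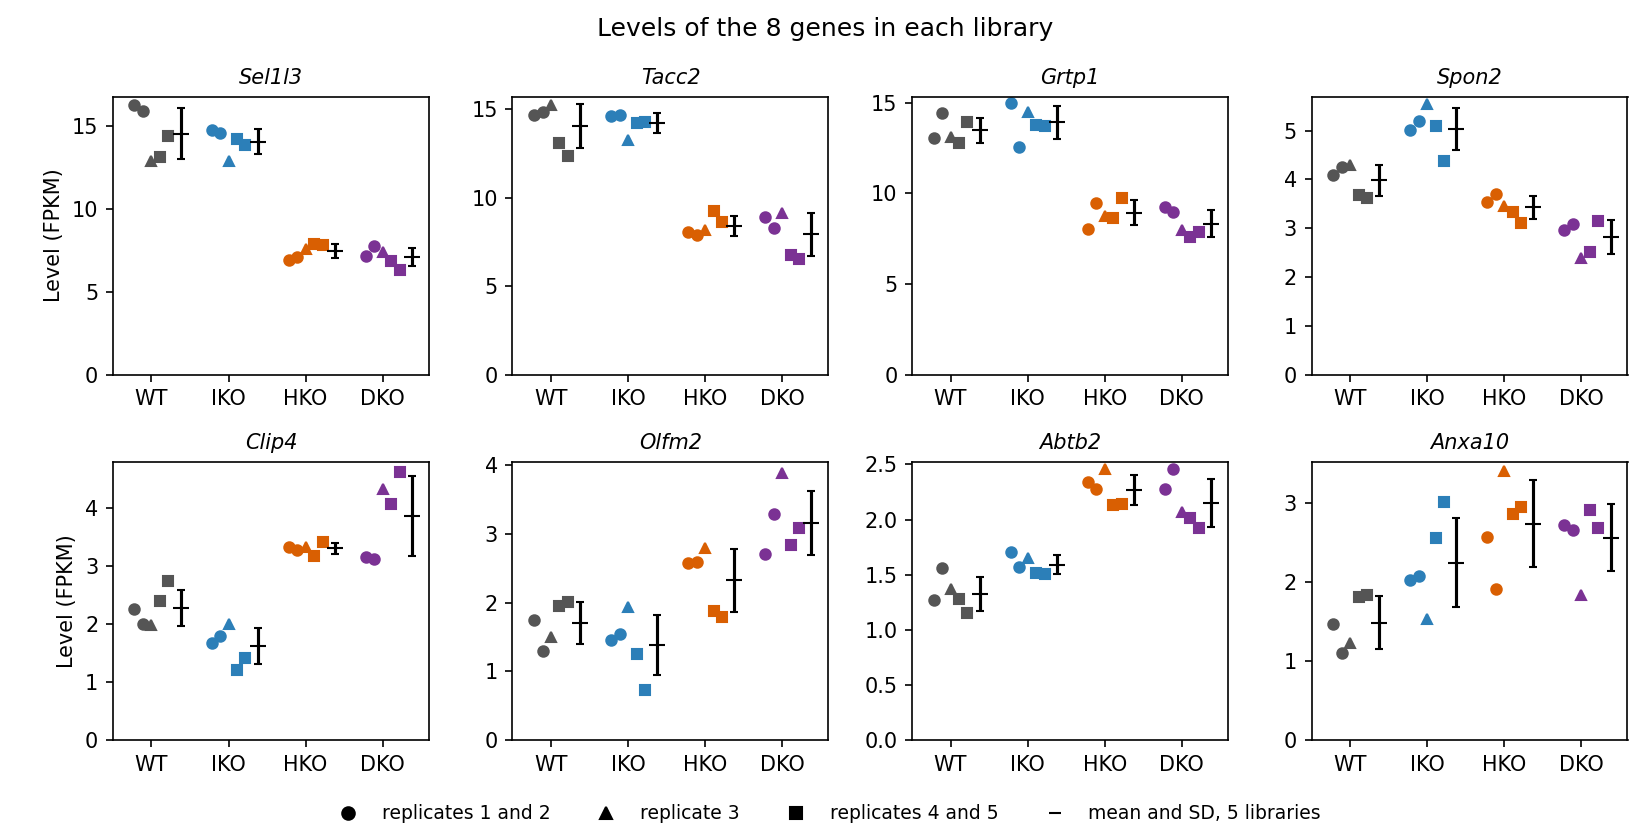
FPKM of each gene in each library (points, 5 per genotype, with a symbol for each library set), with the group mean as a black tick and its SD as an error bar. Sel1l3, Tacc2 and Grtp1 fall into a high pair of groups (WT and IKO) and a low pair (HKO and DKO), whereas Spon2, Clip4 and Olfm2 are spread over the 4 genotypes.

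The plot of levels by genotype shows that the genes differ in abundance as well as in direction. In WT, Sel1l3, Tacc2 and Grtp1 were expressed above 63.5%, 62.5% and 61.3% of the genes tested. Spon2 lay above 29.1%, Clip4 above 19.1%, Olfm2 above 14.9%, Anxa10 above 13.1% and Abtb2 above 11.7%. The rarer genes rest on few reads: 30 to 203 per library for Olfm2 and 40 to 109 for Anxa10, compared with 1439 to 5049 for Tacc2.

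Sel1l3, Tacc2 and Grtp1 were the 3 moderately expressed genes that were lower without Hnf4a by a similar amount in both Foxo1 states. Sel1l3 stood at 16.3, 15.9, 12.9, 13.1 and 14.4 FPKM in WT replicates 1 to 5 and at 14.8, 14.6, 12.9, 14.2 and 13.9 in IKO. It stood at 6.90, 7.11, 7.60, 7.87 and 7.81 FPKM in HKO and at 7.15, 7.74, 7.42, 6.85 and 6.33 in DKO. All 10 libraries without Hnf4a were below all 10 with it, and within each pair of groups the ranges overlapped. Group means were 14.5 ± 1.55 (WT), 14.1 ± 0.756 (IKO), 7.46 ± 0.432 (HKO) and 7.10 ± 0.544 FPKM (DKO; SD, n = 5), or 51.3% of WT in HKO and 50.5% of IKO in DKO. On the log2(FPKM + 0.5) scale the difference was -0.91 (SE 0.07) in HKO against WT and -0.94 (SE 0.07) in DKO against IKO.

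Tacc2 stood at 14.6, 14.8, 15.2, 13.1 and 12.4 FPKM in WT and at 14.6, 14.6, 13.3, 14.2 and 14.3 in IKO. In HKO it was 8.03, 7.86, 8.16, 9.23 and 8.63 FPKM, and in DKO 8.87, 8.30, 9.14, 6.73 and 6.53. Again no library without Hnf4a reached the lowest library with it, and DKO replicates 4 and 5 were the lowest of all. Group means were 14.0 ± 1.24, 14.2 ± 0.560, 8.38 ± 0.553 and 7.91 ± 1.21 FPKM in WT, IKO, HKO and DKO (SD, n = 5). The log2 difference was -0.71 (SE 0.08) with Foxo1 present and -0.82 (SE 0.08) with Foxo1 deleted.

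Grtp1 stood at 13.1, 14.4, 13.1, 12.8 and 14.0 FPKM in WT and at 15.0, 12.6, 14.5, 13.8 and 13.7 in IKO. It stood at 8.03, 9.48, 8.74, 8.62 and 9.72 FPKM in HKO and at 9.22, 8.99, 7.97, 7.57 and 7.89 in DKO. The pattern was that of Sel1l3 and Tacc2 with a smaller step: the HKO mean was 66.2% of WT and the DKO mean 59.9% of IKO. Its means were 13.5 ± 0.692, 13.9 ± 0.915, 8.92 ± 0.683 and 8.33 ± 0.730 FPKM (SD, n = 5), and the log2 differences were -0.57 (SE 0.07) and -0.71 (SE 0.07). In an annotation (GENCODE M21) the 3' part of Grtp1, on the minus strand of chromosome 8, overlaps Lamp1 on the plus strand, and the strand setting of the counting is not given in the sources used here. In RefSeq the 3' end of Grtp1 lies at 13176869, compared with 13172022 in GENCODE M21. Lamp1, a lysosomal membrane protein, was at 302 ± 18.7 FPKM in WT and 282 ± 20.7 in HKO. The gene length implied by the Grtp1 values, 1310 bp, is shorter than its 4093 bp of exon in GENCODE M21. This was so for all 8 genes, such as Sel1l3 with 4512 of 9850 bp.

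Spon2 was also lower without Hnf4a, but its 4 groups formed a series from IKO through WT and HKO to DKO. It stood at 4.09, 4.24, 4.29, 3.69 and 3.61 FPKM in WT and at 5.0, 5.20, 5.54, 5.09 and 4.37 in IKO. In HKO it was 3.54, 3.71, 3.45, 3.33 and 3.10 FPKM, and in DKO 2.96, 3.09, 2.39, 2.5 and 3.15. All IKO libraries were above all WT libraries, HKO overlapped with both WT and DKO, and DKO was below WT in every library. The means were 3.98 ± 0.316, 5.04 ± 0.427, 3.43 ± 0.229 and 2.82 ± 0.349 FPKM in WT, IKO, HKO and DKO (SD, n = 5). The log2 difference was -0.19 (SE 0.08) with Foxo1 present and -0.74 (SE 0.08) with Foxo1 deleted.

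Clip4 ran the other way, lowest in IKO and highest in DKO. It stood at 2.25, 2.0, 1.98, 2.40 and 2.75 FPKM in WT and at 1.67, 1.79, 2.0, 1.20 and 1.42 in IKO. In HKO it was 3.34, 3.28, 3.33, 3.17 and 3.42 FPKM, and in DKO 3.16, 3.12, 4.33, 4.07 and 4.63. The HKO libraries lay within a narrow band above every WT library, while DKO split into replicates 1 and 2, which were level with HKO, and replicates 3 to 5, which were above it. The means were 2.28 ± 0.317, 1.62 ± 0.314, 3.31 ± 0.0910 and 3.86 ± 0.689 FPKM (SD, n = 5). The DKO mean was 239% of IKO and the HKO mean 145% of WT, with log2 differences of 1.04 (SE 0.11) and 0.46 (SE 0.11). In HKO against WT it did not pass, but passed under 4 alternatives: without IKO replicate 4, with a library set block, with only the groups compared in the fit, and with voom.

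Olfm2 had the same order of groups as Clip4 at a lower level. It stood at 1.75, 1.29, 1.49, 1.95 and 2.01 FPKM in WT and at 1.45, 1.54, 1.93, 1.25 and 0.731 in IKO. In HKO it was 2.58, 2.60, 2.79, 1.88 and 1.78 FPKM, and in DKO 2.71, 3.29, 3.89, 2.83 and 3.09. HKO replicates 4 and 5 fell inside the WT range and the other HKO libraries lay above it, while all DKO libraries were above all WT and IKO libraries. The means were 1.70 ± 0.305, 1.38 ± 0.440, 2.33 ± 0.458 and 3.16 ± 0.465 FPKM (SD, n = 5), with log2 differences of 0.36 (SE 0.16) in HKO against WT and 0.99 (SE 0.16) in DKO against IKO. Its call in DKO against WT was lost without WT replicate 2 and without DKO replicate 3.

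Abtb2 and Anxa10 were higher without Hnf4a by more where Foxo1 was present. Abtb2 stood at 1.27, 1.56, 1.37, 1.28 and 1.16 FPKM in WT and at 1.71, 1.57, 1.65, 1.52 and 1.51 in IKO. In HKO it was 2.34, 2.28, 2.46, 2.13 and 2.14 FPKM, and in DKO 2.28, 2.46, 2.07, 2.01 and 1.93. Every library without Hnf4a was above every library with it, and HKO and DKO overlapped. The means were 1.33 ± 0.153, 1.59 ± 0.0862, 2.27 ± 0.139 and 2.15 ± 0.217 FPKM (SD, n = 5), 171% of WT in HKO and 135% of IKO in DKO, and the log2 differences were 0.60 (SE 0.07) and 0.34 (SE 0.07). In DKO against IKO the call of Abtb2 was lost when any 1 of IKO replicates 2, 4 and 5 or DKO replicates 1 and 2 was left out.

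Anxa10 stood at 1.46, 1.10, 1.24, 1.81 and 1.83 FPKM in WT and at 2.03, 2.08, 1.53, 2.56 and 3.02 in IKO. In HKO it was 2.57, 1.91, 3.41, 2.86 and 2.96 FPKM, and in DKO 2.73, 2.66, 1.84, 2.92 and 2.68. WT was the lowest group, every HKO and DKO library was above every WT library, and IKO overlapped with all 3 other groups. The means were 1.49 ± 0.332, 2.25 ± 0.565, 2.74 ± 0.556 and 2.57 ± 0.420 FPKM (SD, n = 5), and the log2 difference was 0.70 (SE 0.16) in HKO against WT but 0.17 (SE 0.16) in DKO against IKO. Its call in HKO against WT was lost when any 1 of WT replicates 1, 2 and 3 or HKO replicates 1, 3, 4 and 5 was left out. It was also lost without the 3 libraries highest in acinar markers (described below), without the filter on low values, with only the groups compared in the fit, with voom, and with the close pairs averaged or correlated, so that it held under 21 of 34 alternatives. In DKO against WT, where it did not pass, it passed under 10 of 34: both blocks, a pseudocount of 0.1, no trend, without the acinar-high libraries, and without any 1 of IKO replicates 3 and 5, HKO replicates 2 and 3 or DKO replicate 3.

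**Figure D2:**
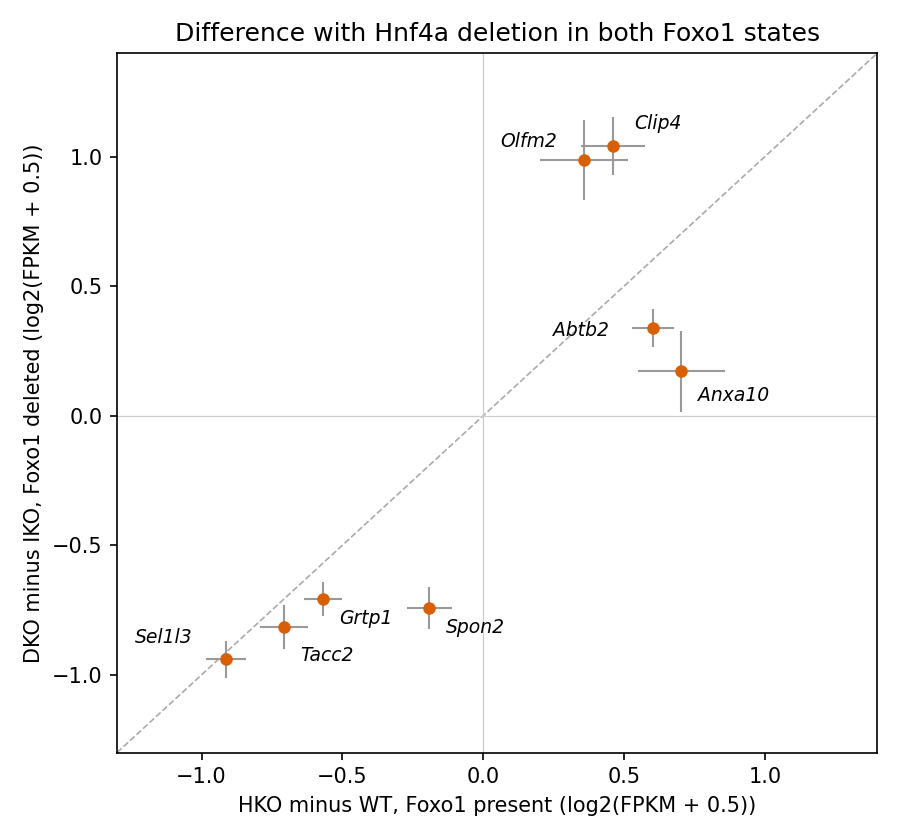
Log2 difference of each gene with Hnf4a deletion, with Foxo1 present (HKO minus WT, x axis) and with Foxo1 deleted (DKO minus IKO, y axis), on the log2(FPKM + 0.5) scale. Bars are standard errors and the dashed line marks equal differences; Sel1l3 lies on it, Clip4, Olfm2 and Spon2 lie farther from 0 on the y axis, and Abtb2 and Anxa10 farther from 0 on the x axis.

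The plot of the Hnf4a difference in both Foxo1 states sets these values side by side. The distance of each gene from the line of equal differences is the interaction, that is the DKO minus IKO difference less the HKO minus WT difference, and it was tested over all genes. None of the 8 passed, against 0.00803% of all genes (1 gene), and 551 of 12455 genes had an unadjusted p below 0.05. The interaction uses the libraries that chose the genes, so its p-values are not independent of the choice. Spon2 had an interaction of -0.55 (95% interval -0.79 to -0.31, limma adjusted p = 0.428) and ranked 3 of 12455 by unadjusted p. Its limma adjusted p was 0.0714 with a library set block, the lowest under the 34 alternatives. Clip4 had 0.58 (0.24 to 0.91, adjusted p = 0.798) and Olfm2 0.63 (0.17 to 1.09, adjusted p = 0.989), the latter falling to 0.39 (SE 0.23) without the 3 libraries highest in acinar markers. For Abtb2 it was -0.26 (-0.49 to -0.04) and for Anxa10 -0.53 (-0.99 to -0.07), both at an adjusted p of 0.989. The intervals of the interaction count each library of a close pair on its own. With close pairs correlated the SE was 0.18 for Abtb2, 0.31 for Anxa10 and 0.35 for Olfm2. The unadjusted limma p was then 0.136, 0.0719 and 0.123 for these, 0.0082 for Spon2 and 0.025 for Clip4. For Sel1l3 the interval was -0.24 to 0.18, for Tacc2 -0.36 to 0.14 and for Grtp1 -0.34 to 0.06, so differences of these sizes between Foxo1 states remain possible.

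**Figure D3:**
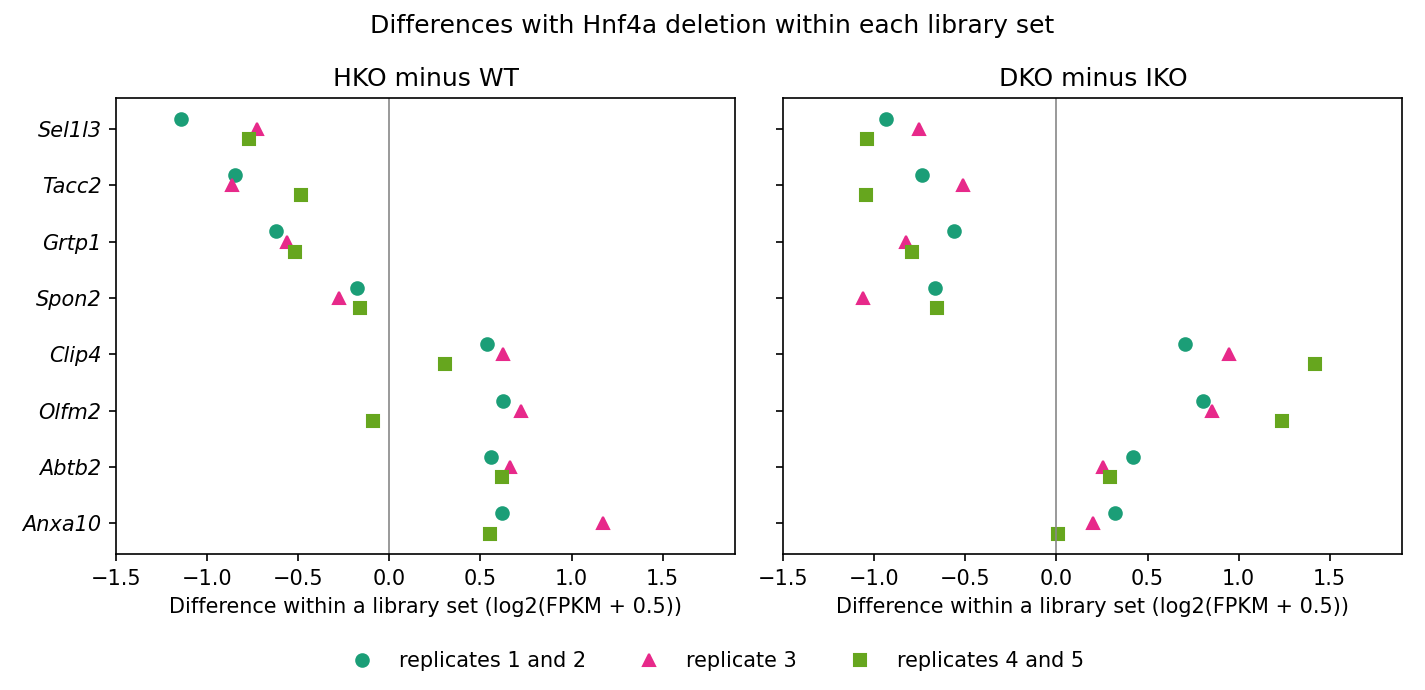
Log2 difference of each gene with Hnf4a deletion within each library set (replicates 1 and 2, replicate 3, replicates 4 and 5), for HKO minus WT and for DKO minus IKO, on the log2(FPKM + 0.5) scale. The sign is the same in all 3 sets for every gene except Olfm2 in HKO minus WT, and it was fixed for genes whose libraries do not overlap.

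Within library sets, the direction in HKO against WT was the same in all 3 sets for 7 of 8 genes, and in DKO against IKO for 8 of 8. The exception was Olfm2 in HKO against WT, at 0.62 in replicates 1 and 2, 0.72 in replicate 3 and -0.09 in replicates 4 and 5. For genes whose libraries did not overlap, the sign was fixed in advance. Only Spon2 and Olfm2 in HKO against WT, and Anxa10 in DKO against IKO, were free to differ. The genes were also chosen by these differences, so nothing is read from the counts. Spon2 was at -0.18, -0.28 and -0.16 with Foxo1 present and at -0.67, -1.06 and -0.66 with Foxo1 deleted. In the plot by library set, Clip4 and Olfm2 in DKO against IKO were farthest from 0 in replicates 4 and 5. Clip4 differed by 0.71, 0.95 and 1.42 and Olfm2 by 0.81, 0.85 and 1.24. Within sets the interactions were 0.17, 0.33 and 1.12 for Clip4 and 0.19, 0.13 and 1.32 for Olfm2, compared with -0.49, -0.79 and -0.49 for Spon2. Anxa10 in DKO against IKO was at 0.32, 0.20 and 0.01. Tacc2 had an interaction of 0.11 and 0.35 in the first 2 sets and -0.56 in replicates 4 and 5.

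The loss of Foxo1 alone was compared in IKO against WT. The WT libraries, and in DKO against IKO the IKO libraries, may both have taken part in choosing the genes, so the values that follow are not independent of the choice. None of the 8 passed limma's test, against 0.0241% of all genes (3 genes, and 29 without IKO replicate 3), and 536 genes had an unadjusted p below 0.05. Spon2 was the only 1 of the 8 whose IKO and WT libraries did not overlap, against 0.763% of all genes. It was higher in IKO by 0.30 on the log2 scale (95% interval 0.14 to 0.47, limma adjusted p = 0.522). Clip4 was lower in IKO by -0.40 (-0.63 to -0.16, limma adjusted p = 0.591). Anxa10 was higher by 0.46 (0.13 to 0.78, limma adjusted p = 0.846) and Abtb2 by 0.20 (0.04 to 0.35, limma adjusted p = 0.986). For Sel1l3, Tacc2, Grtp1 and Olfm2 the intervals were -0.19 to 0.11, -0.16 to 0.20, -0.10 to 0.18 and -0.57 to 0.08. All of these intervals count each library of a close pair on its own. With close pairs correlated the SE for Anxa10 was 0.22 and for Abtb2 0.13 (unadjusted limma p = 0.0686 and 0.141), and in DKO against HKO the unadjusted limma p was 0.0649 for Spon2 and 0.131 for Olfm2.

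Within library sets, the IKO difference of Spon2 was 0.26, 0.34 and 0.33 and that of Abtb2 0.16, 0.20 and 0.23. Clip4 differed by -0.23, 0.01 and -0.77, so its lower mean in IKO was not seen in replicate 3 and was largest in replicates 4 and 5. Anxa10 differed by 0.53, 0.23 and 0.50.

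**Figure D4:**
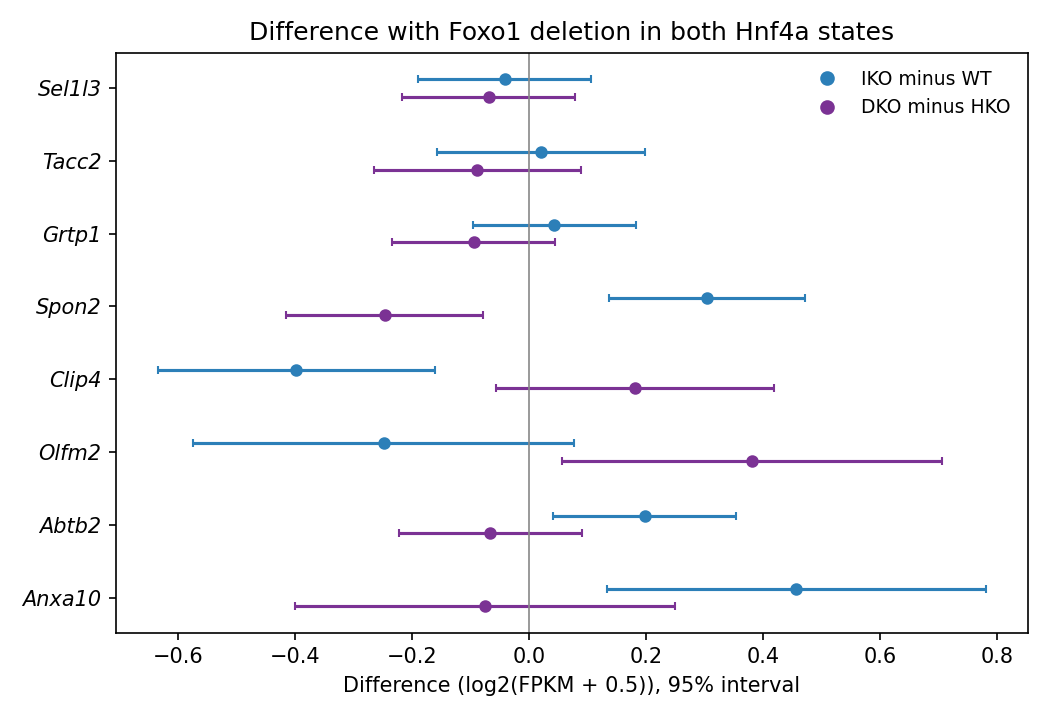
Log2 difference of each gene with Foxo1 deletion, with Hnf4a present (IKO minus WT) and with Hnf4a deleted (DKO minus HKO), on the log2(FPKM + 0.5) scale with 95% intervals from limma. The intervals count each library of a close pair separately; those of Spon2, Clip4, Anxa10 and Abtb2 in IKO minus WT and of Spon2 and Olfm2 in DKO minus HKO do not hold 0, and no gene passes the test over all genes.

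DKO against HKO, whose libraries on both sides may likewise have taken part in the choice, again gave 0 of 8 genes past limma's test, against 0.00803% of all genes (1 gene), with 459 genes at an unadjusted p below 0.05. No gene had DKO and HKO libraries without overlap, against 0.988% of all genes. The plot of the Foxo1 difference shows Spon2 on opposite sides of 0 in the 2 Hnf4a states: it was lower in DKO than in HKO by -0.25 (95% interval -0.41 to -0.08, limma adjusted p = 0.974). Olfm2 was higher in DKO by 0.38 (0.06 to 0.71, limma adjusted p = 0.990), at 0.18, 0.42 and 0.57 within the library sets, but by 0.14 (SE 0.17) without the 3 libraries highest in acinar markers. Those include HKO replicates 4 and 5, the lowest HKO libraries for Olfm2. Clip4 was at 0.18 (-0.06 to 0.42), and the intervals of the other 5 genes, Sel1l3, Tacc2, Grtp1, Abtb2 and Anxa10, all held 0.

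Markers of acinar cells, the enzyme-secreting cells around the islets, moved with Hnf4a deletion. Their summed level over 21 genes, all above 0 in at least 1 library, ranged from 39.4 to 259 FPKM in WT and from 24.7 to 223 in IKO, but from 417 to 1550 in HKO and from 171 to 1520 in DKO. The 3 highest libraries were HKO replicates 4 and 5 and DKO replicate 3. Without them, the differences of HKO against WT were -0.96 for Sel1l3, -0.77 for Tacc2, -0.60 for Grtp1, -0.14 for Spon2, 0.46 for Clip4, 0.53 for Olfm2, 0.65 for Abtb2 and 0.64 for Anxa10. In DKO against IKO they were -0.96, -0.87, -0.69, -0.69, 1.0, 0.92, 0.35 and 0.27 in that order. The HKO libraries that remained were still above every WT and IKO library in acinar markers, at 417 FPKM or more. Leaving out the 3 libraries therefore does not remove the acinar difference, and its part in the values of the 8 genes was not tested. Immune cell markers, 8 of 8 above 0 in at least 1 library, summed to 14.6 to 23.6 FPKM in WT libraries and 23.7 to 33.8 in DKO, with IKO at 15.5 to 23.3 and HKO at 15.0 to 27.3, and their part in the values of the 8 genes was not tested.

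The relatives of the 8 genes were examined as a family list. Of 93 other genes listed in these families and pathways 75 were tested, and none passed in HKO against WT, IKO against WT, DKO against HKO or the interaction. Rspo4, a secreted R-spondin that strengthens Wnt signalling and was listed with the spondins, was the single gene to pass in DKO against WT (log2 -0.66, limma adjusted p = 0.00209) and in DKO against IKO (-0.54, limma adjusted p = 0.0162), close to the 1.2% and 1.11% of all genes that passed there. Its means were 22.1 ± 1.72 FPKM with neither deletion, 20.6 ± 3.54 in IKO, 16.5 ± 1.67 in HKO and 13.9 ± 1.68 with both (SD, n = 5). The median difference of HKO against WT was 0.02 over 36 other TBC-domain genes, -0.02 over 10 other microtubule plus-end genes, 0.10 over 8 other annexins and 0.0002 over 14 ERAD genes, beside 0.0004 over all genes tested. Among these annexins, Anxa2 was at 0.58 and Anxa3 at 0.63, near Anxa10 at 0.70. The rest lay between -0.22 (Anxa6) and 0.16 (Anxa9).

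Among the nearest relatives, Sel1l was at 48.6 ± 8.37 FPKM in WT and 48.7 ± 10.6 in HKO, above Sel1l3 in both, and Sel1l2 was listed at 0 in all libraries. Tacc1 was at 10.6 ± 1.17 FPKM in WT and 9.57 ± 1.54 in HKO, and Tacc3 at 2.21 ± 0.168 and 2.31 ± 0.328. The Tacc2 mean was above that of Tacc1 in WT, and below it in HKO by less than the SD of Tacc1. Clip4 was the least abundant of its family, beside WT means of 27.8 FPKM for Clip1, 10.97 for Clip2 and 14.9 for Clip3. Spon1, at 0.0244 FPKM in WT, and Olfm3, at 0.0419, were below the filter on low values, whereas Olfm1 was at 4.09 and Olfm4 at 14.3. Abtb1 was at 11.1 FPKM and Btbd11 at 0.761. Anxa10, at 1.49 FPKM in WT, was close to Anxa2 at 1.66 and Anxa9 at 0.832 and far below Anxa5, the most abundant annexin, at 185.

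For each gene the 3 tested genes with the most similar pattern over all 20 libraries were found by Pearson's r of log2(FPKM + 0.5). These are descriptions across libraries that share genotypes and library sets. Sel1l3 was closest to Anks4b (r = 0.97), Elovl2 (0.97) and Tacc2 (0.97). Tacc2 was closest to Tmprss4 (0.97), Sel1l3 (0.97) and Cacnb3 (0.96), and Grtp1 to Sel1l3 (0.96), Tmprss4 (0.95) and Cacnb3 (0.94). Nothing is read from the partners that these 3 genes share. With the group means taken out, r was 0.555 for Sel1l3 and Tacc2, 0.325 for Sel1l3 and Grtp1, and 0.263 for Tacc2 and Grtp1. Anks4b, an ankyrin-repeat protein of the epithelial brush border, was at 13.8 ± 1.75 FPKM in WT and 3.93 ± 0.669 in HKO, and Elovl2, an elongase of polyunsaturated fatty acids, at 5.13 ± 1.01 and 2.25 ± 0.263 (SD, n = 5). Cacnb3, a subunit of voltage-gated calcium channels, was at 20.4 ± 0.920 and 14.7 ± 0.815.

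Clip4 and Olfm2 were each other's neighbours too (r = 0.87, and 0.538 with the group means taken out). Clip4 was closest to Arhgap36 (0.88), Olfm2 and Ceacam10 (0.87), and Olfm2 was closest to Clip4, Pcdh15 (0.87) and Syt9 (0.87), the last a synaptotagmin of secretory vesicles. Arhgap36 was lowest in IKO (1.76 ± 0.272 FPKM), then WT (2.52 ± 0.381), HKO (6.08 ± 1.45) and DKO (6.63 ± 0.924), the same order of groups as Clip4 and Olfm2. Spon2 was closest to Abcb4 (0.84), Fhod3 (0.84) and Grtp1 (0.84), Abtb2 to Csgalnact1 (0.87), Dpp6 (0.86) and Prex1 (0.86), and Anxa10 to Ccdc112 (0.85), Fyn (0.84) and Cadm1 (0.83). With the group means taken out, none of these partners was among the closest 3: the first was then Fsd1l for Sel1l3 (0.84), Jmjd7 for Tacc2 (0.85), Khdc3 for Grtp1 (0.68), Gstt3 for Clip4 (0.86), Cited2 for Spon2 (0.79), Cmpk2 for Olfm2 (0.85), Mapt for Abtb2 (0.80) and Nrcam for Anxa10 (0.93).

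The genes lie on 6 chromosomes of the mouse build GRCm38. Sel1l3 (chr5:53107083-53213927, minus strand) and Spon2 (chr5:33198184-33218455, minus) share chromosome 5, and Grtp1 (chr8:13172022-13200620, minus) and Anxa10 (chr8:62057042-62123150, minus) share chromosome 8. Tacc2 is at chr7:130577438-130764785 (plus), Clip4 at chr17:71768473-71864273 (plus), Olfm2 at chr9:20667690-20746349 (minus) and Abtb2 at chr2:103566310-103718423 (plus). Of the 16 nearest tested genes that do not overlap the 8, 100 to 2469392 bp away, none passed in any of the 6 comparisons. Of all genes 0.00803 to 1.2% passed there, so nothing is read from the lack of a pass among these 16. The closest of them was 2810030D12Rik, which starts 100 bp from Grtp1 and is read in the other direction; named after its values were seen, it was at 0.770 ± 0.333 FPKM in WT and 0.348 ± 0.144 in DKO on 3 to 32 reads per library. Alk, a receptor tyrosine kinase gene 4699 bp from Clip4 and also named after its values were seen, was at 1.32 ± 0.276 FPKM in WT and 2.14 ± 0.307 in DKO.

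Promoter sequences, the 250 bases before annotated RefSeq starts (GRCm38.p6), were present for 6 of the 8 genes in 11 windows, and they were searched on both strands. Sel1l3 and Spon2 had no window, and neither did the outermost RefSeq start of Tacc2 (chr7:130553009), so these were not searched. Neither the 4 HNF4 words searched (CAAAGTCCA, CAAAGGTCA, CAAAGTTCA and CAAAGGCCA, held by 1.598% of 32851 windows) nor the FoxO word TGTTTAC (3.166%) occurred in any of the 11. The nuclear receptor half-site AGGTCA, searched after that result, occurred in 2 of 11 windows, compared with 14.02% of all windows. Half-site AGTCCA occurred in 0 of 11, compared with 11.52%. A match or its absence describes only these letters in this window. The windows below, picked after the search, are the 2 that hold AGGTCA, of Clip4 and Olfm2, and for comparison 1 each of Tacc2 and Grtp1 without it. The windows of Abtb2 and Anxa10, which are also higher without Hnf4a, and the other windows of Tacc2, Clip4 and Olfm2 did not hold it. The half-site is in capitals where present, and each is read 5' to 3' on the gene's strand. They are chr7:130577188-130577437 (plus) for Tacc2, chr8:13200625-13200874 (minus) for Grtp1, chr17:71769441-71769690 (plus) for Clip4 and chr9:20728230-20728479 (minus) for Olfm2.
Tacc2: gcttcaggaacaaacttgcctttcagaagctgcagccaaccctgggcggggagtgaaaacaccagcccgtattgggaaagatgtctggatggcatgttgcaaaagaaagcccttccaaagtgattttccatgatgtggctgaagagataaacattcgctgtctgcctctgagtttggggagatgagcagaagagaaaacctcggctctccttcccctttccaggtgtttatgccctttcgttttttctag
Grtp1: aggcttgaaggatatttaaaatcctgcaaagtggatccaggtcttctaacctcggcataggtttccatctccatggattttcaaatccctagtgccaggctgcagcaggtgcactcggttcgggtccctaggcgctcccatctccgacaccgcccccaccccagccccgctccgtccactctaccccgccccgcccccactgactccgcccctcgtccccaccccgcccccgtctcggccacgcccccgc
Clip4: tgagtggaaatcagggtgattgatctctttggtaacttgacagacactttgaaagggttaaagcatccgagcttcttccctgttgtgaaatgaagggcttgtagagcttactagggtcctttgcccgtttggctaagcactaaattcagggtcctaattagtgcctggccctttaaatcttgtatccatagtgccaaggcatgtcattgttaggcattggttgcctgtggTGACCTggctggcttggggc
Olfm2: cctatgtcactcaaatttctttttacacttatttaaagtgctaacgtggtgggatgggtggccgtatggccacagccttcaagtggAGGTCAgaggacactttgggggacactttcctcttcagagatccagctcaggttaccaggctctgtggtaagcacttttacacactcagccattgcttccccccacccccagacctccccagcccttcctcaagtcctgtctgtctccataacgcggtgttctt
The Clip4 half-site lies on the minus strand with its first base at -20 from the start, as TGACCT, and that of Olfm2 on the plus strand at -164. Both of these starts lie inside an intron of a longer GENCODE transcript.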

How the data were processed

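RNA-seq libraries of sorted beta cells (directional, poly-A selected, 42 bp paired-end, per the labels' protocols) were deposited as 1 table of FPKM values with 20 library columns, and groups were taken from the sample titles. Tools listed in the submitters' processing notes, with no role or order, are Subread 1.5.2, featureCounts, STAR 2.5.2b and DESeq2 1.14.1, and the build is mm10. The gene annotation and the strand setting were not found in the labels. Of 27179 entries, 847 named NA and 27 with a date for a name were left out (0.081 to 0.204% and 0.160 to 0.186% of reads per library).

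Whole reads (within 0.02 reads) were recovered from the deposited FPKM values for 21006 of 21006 entries above 0 (100%), which gave the library totals and 1 alternative, limma's voom. A trended limma fit (version 3.58.1, R 4.3.3) of log2(FPKM + 0.5) covered the 12455 genes whose mean reached 0.5 FPKM, with all 20 libraries in 1 fit and Benjamini-Hochberg adjustment at 0.05 over all genes tested. This scale understates the change of low genes. The fit was run on simulated data without close pairs, which cannot check its error rate on libraries that come in close pairs. Replicates were compared by a chi-square statistic per gene, with a median of 1.67 for the 8 close pairs (replicates 1 and 2, and 4 and 5) and of 10.05 for the 32 other pairs. These pairs differed beyond sampling noise and were kept as separate libraries, which does not show that they are independent. They were averaged or treated as correlated (0.81) as alternatives. The SEs given with the differences count each library on its own. In HKO against WT the SE was 0.08 for Tacc2 and 0.07 for Grtp1. It was 0.10 and 0.14 with close pairs correlated.

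The 8 genes, the family and marker lists, the tests and the alternatives were chosen with earlier results of these data known. DKO against IKO had been planned as a test. It is given as a description, because it cannot be told apart from the comparisons that chose the genes. Besides the 8 genes, the text names the targeted genes, family genes that passed in any comparison, the nearest relatives by name, and the 3 genes most alike in pattern. Anxa2, Anxa3, Anxa5, Anxa6, Rspo1, Lamp1, 2810030D12Rik, Alk and the half-site words were named after their values were seen. Promoter windows were to be shown for genes with an HNF4 word. None had one, so the 4 shown were chosen after the search. Protein sequences were not used here.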

Additional observations from a re-analysis of the deposited data

Results flagged for a closer look

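In DKO, Anxa10 in replicate 3 was at 1.84 FPKM, below the other 4 libraries at 2.66 to 2.92. Its gap to the nearest library was 0.765 of the group's range, above the critical value of 0.710 for 5 libraries. In all, 32 groups of 5 libraries were examined in this way, and chance alone sets apart about 1 group in 20. DKO replicate 3 was also among the 3 libraries highest in acinar markers, and the part of this in the Anxa10 value was not tested. Without DKO replicate 3, the Anxa10 difference of DKO against HKO was 0.02 on the log2 scale.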

How the results depend on the processing

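The counts of the 8 genes passing in IKO against WT, DKO against HKO and the interaction were 0 under all 34 alternatives, the replicate block included. In HKO against WT the count was 5, and it was 2 with close pairs averaged (Grtp1 and Sel1l3) and 2 with close pairs correlated (Sel1l3 and Tacc2). In DKO against WT it was 7, and 3 under each of these settings (Grtp1, Sel1l3 and Tacc2). In DKO against IKO it was 7, and 5 under each. Leaving out 1 library gave 4 to 6, 6 to 8 and 6 to 7 of the 8 genes in these comparisons. Over all genes it gave 66 to 114, 101 to 180 and 85 to 250. A replicate block gave 5, 8 and 7 genes, and 193, 263 and 291 genes in all compared with 98, 150 and 138. Replicate numbers were not taken as pairing the libraries, since not every same-numbered pair correlated above 0.1: the lowest correlation of deviations was -0.386 for replicate 3 and 0.081 for replicate 1, but 0.108, 0.370 and 0.285 for replicates 2, 4 and 5. In all, 9 of 20 libraries were closest to their own number, a count that the close pairs blur, and library sets shared across genotypes remain possible. Over all genes, close pairs averaged left 5, 17 and 15 genes and close pairs correlated left 26, 42 and 26. A library set block gave 277, 363 and 434.

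Of 24 tested differences 4 changed sign, with 11 sign changes in all over the 34 alternatives. Tacc2 in IKO against WT was -0.0152 with close pairs averaged, -0.0092 with them correlated, and -0.0222 to 0.0512 when 1 library was left out. Without the 3 libraries highest in acinar markers, Anxa10 in DKO against HKO was 0.0806 and the Sel1l3 interaction 0.0027. Leaving out 1 library gave -0.178 to 0.0199 and -0.0688 to 0.0122 for these, and -0.0808 to 0.0001 for Sel1l3 in IKO against WT. The cause was not tested. Olfm2 and Anxa10 rest on the fewest reads, and counting error was not separated from variation among libraries. The Anxa10 interaction, -0.53, was -0.38 (SE 0.24) without the acinar-high libraries, and Olfm2 in IKO against WT, -0.25, was -0.10 without IKO replicate 5.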
